A study of Mus musculus with 36 samples.

Results

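On day 7 after removal of the left lung, the right lungs of 3 month mice were compared with the left lungs of the same mice. The right lungs carried more RNA of the mitotic machinery, of interstitial collagens and elastic fibers, of complement and of mesothelium. Markers of skeletal muscle and of fat cells were higher too, while T and NK cell markers and several xenobiotic enzymes were lower. The comparison used 6 of the 36 arrays of the series, which are 3 of its 18 pools. Both lungs of every 3 month pool that the labels place on day 7 after pneumonectomy (PNX) were taken, and all genes measured were compared. The study removed the left lung of mice aged 3 or 9 months and collected the right lung 1, 3 or 7 days later. RNA was measured on Illumina mouse whole-genome bead arrays.

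The left lung group was lung tissue of female C57BL6 mice aged 3 months, excised during the PNX operation on day 0, and the right lung group was the lung tissue that remained in the same mice, collected on day 7. Each array held RNA of 2 mice in equal amounts, so 6 mice stand behind the 3 pools, here called pools 1, 2 and 3. All groups of the series are of this strain and sex and carry no engineered allele. Sham-operated mice were not analysed here, so the removal of the lung and the operation itself cannot be told apart. A chip carried lungs of only 1 side and 1 day, from both ages, so the effects of PNX, of the side of the lung and of the chip cannot be told apart. In whole lung tissue, fewer cells of a type and less RNA per cell cannot be told apart either.

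After PNX in rodents the remaining lung enlarges and adds gas-exchange surface, a process called compensatory lung growth. It involves division of alveolar epithelial, endothelial and interstitial cells and the deposition of collagen and elastin into new and stretched septa. Dividing cells first duplicate their DNA with the MCM helicase, replication factors and nucleotide-making enzymes, and then build a spindle and separate the copies with kinases, kinesins and condensins that are made only late in the cycle.

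Values are log2 signals after background correction and quantile normalization, and a change is the difference between the right and the left lung of a pool on this scale, here named the log2 ratio. Calls needed a change of at least 1.5-fold and, in limma, a Benjamini-Hochberg adjusted p under 0.05 over the 15795 transcripts kept, of which 3225 were called (20.4%), and only called genes are said to have risen or fallen. Standard errors (SE) and p-values rest on a spread shared by all 18 pools of the series, not on the 3 pools shown alone. Over 11410 genes, each read from 1 probe, 2238 were called, which is 19.6%. Of these 1128 rose (9.89%) and 1110 fell (9.73%), and the median log2 ratio over all genes was −0.05. The values of the 3 right lungs lay wholly above those of the 3 left lungs for 22.5% of all genes and wholly below for 28.8%, which is 51.3% together, and this held for 97.3% of the called genes, so such a separation alone sets few genes apart. The 75th percentile of intensity was 269 to 290 on the left lung arrays and 181 to 348 on the right lung arrays, and 48.4% to 48.9% of probes were detected in left lungs against 44.9% to 46.2% in right lungs. Sftpc, the surfactant protein of type II alveolar cells, lay between 15.21 and 15.47 and Ager, the marker of type I alveolar cells, between 14.74 and 15.17 on these 6 arrays, so the lung label holds in each. Left lungs were all taken at surgery, yet those of the day 7 pools differed from those of the day 1 and day 3 pools of 3 month mice in 1632 of 15795 transcripts (10.3%). The same right lungs were therefore also set against these 6 other left lungs, and a gene named here that was not called there is given as such. Counts of lists are those with the left lungs of the same pools unless the other lungs are named.

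The gene lists were chosen with earlier results of these data known. Their ranks and shares called therefore describe these data and are not independent evidence. The genes of mitosis formed the list with the highest median among those of at least 7 measured genes, at 2.17, and 14 of 15 measured genes of the 30 listed rose. Skeletal muscle, with 6 measured genes, had a higher median of 4.50. Mki67, the nuclear protein Ki-67 that marks cycling cells, lay at 8.11, 8.04 and 8.02 in the left lungs of pools 1, 2 and 3 and at 10.37, 10.36 and 10.49 in their right lungs. Mki67 thus rose 5.11-fold, and left and right lungs were far from overlapping (log2 ratio 2.35, SE 0.17, limma adjusted p = 1.56e-07). Cdc20, which activates the ubiquitin ligase that starts chromosome separation, went from 8.72, 8.61 and 8.93 to 10.95, 10.86 and 10.96, a rise of 4.5-fold (SE 0.17, adjusted p = 2.94e-07). Cdca3, which triggers entry into mitosis, had the largest ratio of the list with the left lungs of the same pools. It lay at 7.61, 7.54 and 7.50 in left lungs and at 10.29, 10.27 and 10.15 in right lungs, 6.43-fold higher (SE 0.23, adjusted p = 8.93e-07). With the 6 other left lungs the log2 ratio of Cdca3 was 2.04, below Mki67 at 2.57 and Birc5 at 2.53.

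Kinases, spindle proteins and chromosome proteins of the list rose alongside. Birc5 (survivin, 4.75-fold) and Cdca8 (4.2-fold) belong to the chromosomal passenger complex, Plk1 is a mitotic kinase (4.99-fold), and Cdc2a is the kinase Cdk1 that drives mitosis (4.51-fold). Prc1 bundles the central spindle (4.82-fold), Nusap1 binds spindle microtubules (3.55-fold), and Kif22 is a chromosome-bound kinesin (4.7-fold). Top2a, the topoisomerase that untangles sister chromatids, lay at 7.47, 7.50 and 6.90 in left lungs and at 9.32, 9.47 and 9.67 in right lungs. Foxm1, the transcription factor that switches on many of these genes, rose 3.9-fold (log2 ratio 1.96, SE 0.25, adjusted p = 2.25e-05). All 14 were called with the 6 other left lungs too, where the list's median was 2.13. The other 15 listed genes had no probe detected on every array, left lungs included.

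**Figure D1:**
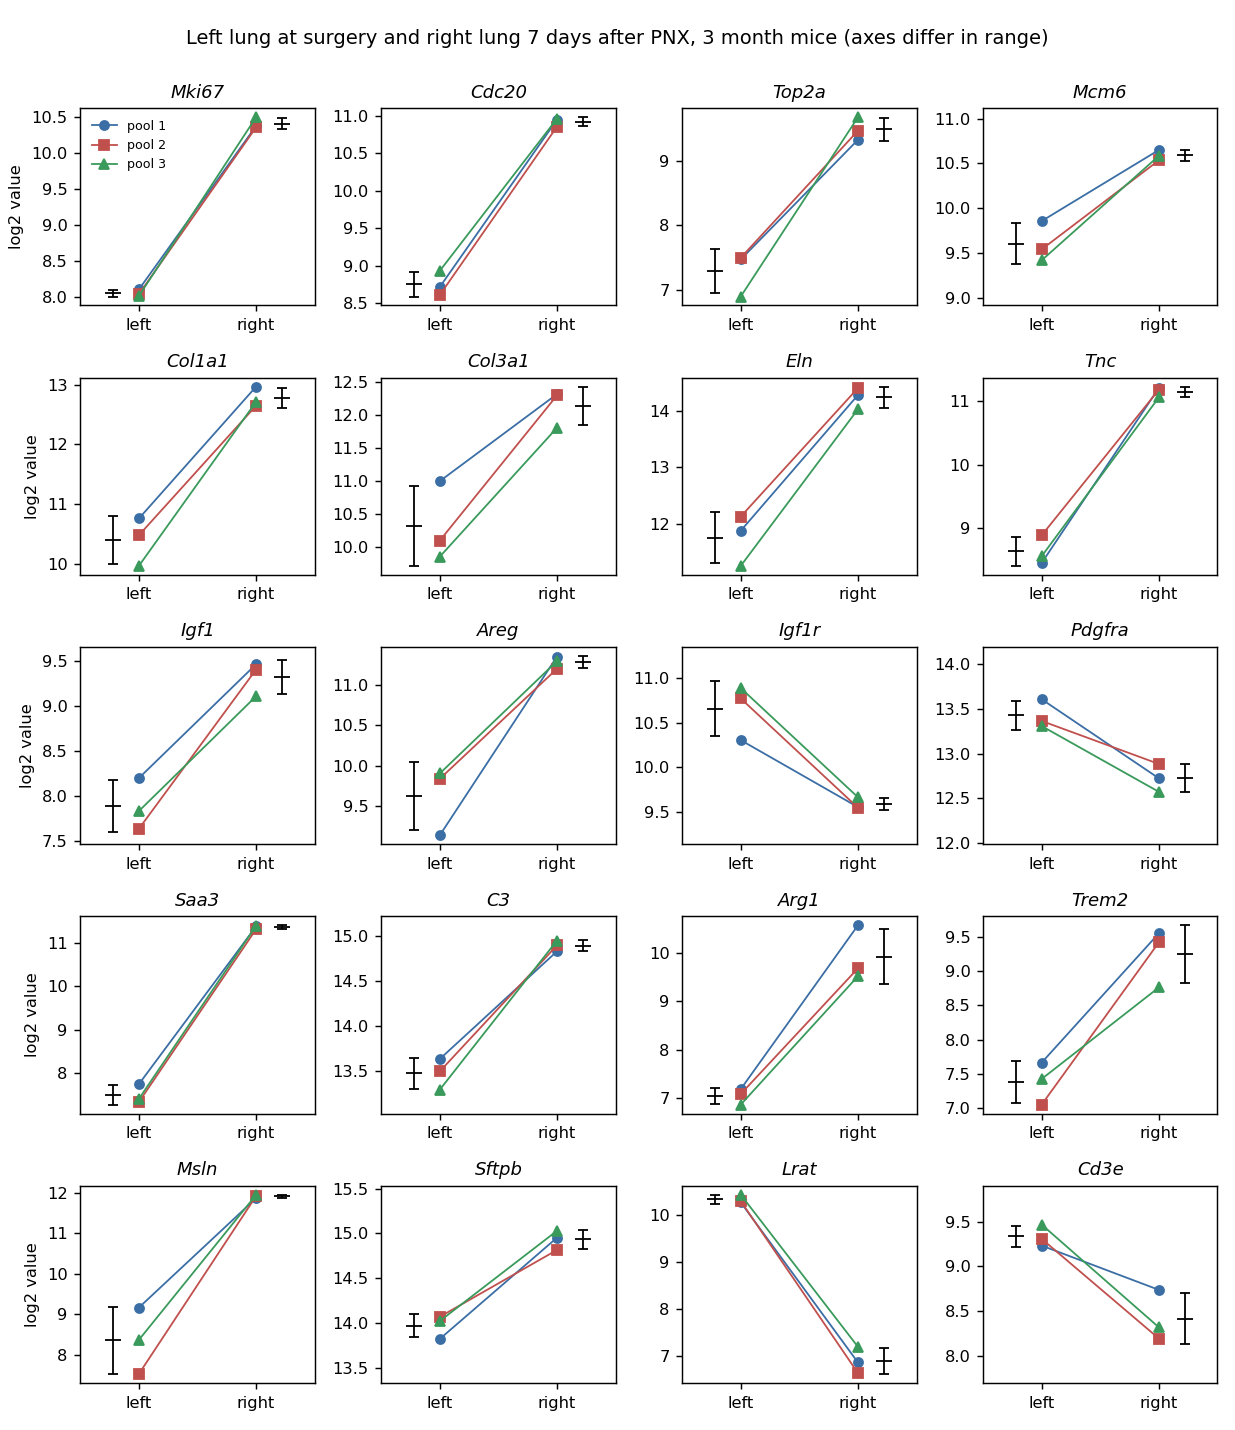
Log2 values (y axis, a range of its own in each panel) of 20 genes in the left and right lung of each 3 month pool on day 7. Lines join the lungs of a pool, and bars show mean ± SD (n = 3). Left and right lungs are separate in every panel, as for Mki67 at 8.02 to 8.11 against 10.36 to 10.49.

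Since these genes moved together, the DNA just upstream of their starts was searched on both strands for letters known from cell cycle promoters. The letters were those of the CHR element (TTTGAA or its variant TTCGAA), which is read by the DREAM and MuvB complexes, of the CCAAT box (CCAAT), which is bound by NF-Y, and of the E2F site (TTTGGCG, its variant TTTCGCG or the further variant TTTCCCG), and no motif contains another. The RefSeq windows of GRCm38.p6 run from 250 bases before a gene's start to 50 bases after it, and 13 of the 14 mitosis genes that rose have such a window. Of these 13, 11 held the CHR letters, 11 the CCAAT letters and 5 the E2F letters, which is 84.6%, 84.6% and 38.5%. Over all 27025 genes with a window the shares were 21.7%, 41.1% and 6.38%, and over the 7824 tested genes with one they were 15.9%, 42.3% and 11.0%. Of the 14 DNA replication genes that rose 13 had a window, and 8 of them (61.5%) held E2F letters, 7 (53.8%) CCAAT letters and 4 (30.8%) CHR letters. The 120 bases before the start are shown for 4 mitosis genes that differ in how the letters are laid out. Capitals mark the letters searched, on either strand, and a match is a description of the letters and not a binding site.
Cdc20 (chr4:118437344-118437463, - strand): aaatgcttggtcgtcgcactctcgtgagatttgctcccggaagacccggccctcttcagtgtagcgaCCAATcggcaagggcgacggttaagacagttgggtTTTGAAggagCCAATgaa
Cdc2a (chr10:69352913-69353032, - strand): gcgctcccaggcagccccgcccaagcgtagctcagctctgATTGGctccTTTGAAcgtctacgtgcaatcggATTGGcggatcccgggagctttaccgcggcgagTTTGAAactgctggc
Top2a (chr11:99024190-99024309, - strand): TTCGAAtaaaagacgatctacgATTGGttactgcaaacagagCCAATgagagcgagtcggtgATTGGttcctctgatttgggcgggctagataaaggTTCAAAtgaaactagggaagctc
Mki67 (chr7:135716380-135716499, - strand): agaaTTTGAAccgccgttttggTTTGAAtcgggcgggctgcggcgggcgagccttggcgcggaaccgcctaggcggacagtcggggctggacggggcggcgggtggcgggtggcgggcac
Cdc2a held the reverse CCAAT letters (ATTGG) more than once beside CHR letters, Top2a held CCAAT letters in both directions beside CHR letters, Cdc20 had its CHR letters between CCAAT letters, and Mki67 had CHR letters repeated a short way apart and no CCAAT letters in the stretch shown.

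DNA replication genes rose as well. Of 20 measured, 14 rose, none fell, and the median log2 ratio was 0.86. Tk1, which salvages thymidine for DNA synthesis, went from 7.90, 7.63 and 7.60 in left lungs to 9.51, 9.47 and 9.67 in right lungs, 3.59-fold higher (SE 0.28, adjusted p = 0.000101). Mcm10, which helps load the replication fork, rose 3.2-fold, and the helicase subunits Mcm5 and Mcm6 rose 2.11-fold and 1.98-fold. Mcm6 lay at 9.86, 9.54 and 9.42 in left lungs and at 10.65, 10.54 and 10.59 in right lungs, without overlap. Rrm1, a subunit of the ribonucleotide reductase that makes deoxynucleotides, rose 2.17-fold (adjusted p = 9.56e-05). With the 6 other left lungs 13 genes of the list rose, and the exception was Rfc3, a subunit of the clamp loader, at a log2 ratio of −0.40 there against 0.61 with the lungs of its own pools.

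Among 19 cyclins, kinase inhibitors and their regulators 5 rose and none fell (26.3% called, beside 19.6% of all genes), with a median of 0.21. Besides Cdc2a they were E2f1, the activator of genes for DNA synthesis (1.61-fold), Ccng1, a target of p53 (1.93-fold), and the inhibitors of the G1 kinases Cdkn2d (2.17-fold) and Cdkn2c (1.71-fold). With the 6 other left lungs Cdkn2d, Ccng1 and Cdkn2c were not called, at log2 ratios of 0.53, 0.46 and 0.26. Ccnd1, the cyclin of G1 phase, read 13.29, 13.65 and 13.80 in left lungs and 13.69, 13.81 and 13.87 in right lungs and was not called (log2 ratio 0.21, SE 0.14, adjusted p = 0.269). Without pool 3, E2f1 was no longer called (log2 ratio 0.44).

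All 10 measured interstitial collagens rose, with a median log2 ratio of 1.19. Col1a1, a chain of type I collagen, the main fibrillar collagen of the lung, lay at 10.76, 10.48 and 9.97 in left lungs and at 12.96, 12.65 and 12.71 in right lungs. That is a rise of 5.17-fold with no overlap (log2 ratio 2.37, SE 0.20, adjusted p = 7.5e-07). Col3a1, of the thinner fibers of type III, went from 11.00, 10.10 and 9.86 to 12.31, 12.29 and 11.80 (3.53-fold, adjusted p = 1.25e-05), and its left lung values spread more than its right lung values. The type VI chain Col6a2, part of the beaded filaments around cells, rose 3.41-fold and its partner Col6a3 2.21-fold. Col12a1, which coats collagen fibrils, rose 2.37-fold but was not called with the 6 other left lungs (log2 ratio 0.32), where 9 of the 10 rose and the median was 1.41. Among 15 genes that modify and fold collagen 5 rose, led by the chaperone Fkbp10 (3.01-fold) and the lysyl hydroxylase Plod1 (2.05-fold). Of these 5, 3 were also called with the 6 other left lungs.

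Genes of elastic fibers rose in 8 of 14 cases, with a median of 0.68. Of these 8, 5 were also called with the 6 other left lungs, where the median was 0.42. Eln, which encodes tropoelastin, lay at 11.88, 12.13 and 11.25 in left lungs and at 14.28, 14.40 and 14.03 in right lungs, 5.6-fold higher (SE 0.22, adjusted p = 9.52e-07). Fbn1, the fibrillin of the microfibrils on which elastin is laid, rose 3.77-fold, and the microfibril protein Mfap5 rose 2.6-fold. Fbln2, a fibulin of elastic fibers, rose 2.65-fold. Lox, the oxidase that crosslinks collagen and elastin, read 11.17, 11.65 and 10.96 in left lungs and 11.65, 11.70 and 11.51 in right lungs and was not called (log2 ratio 0.36, SE 0.26, adjusted p = 0.287). With the other left lungs Lox was called, at 1.14. Its relative Loxl1, which crosslinks elastin, rose 1.56-fold. The left lungs used here carried more Eln and Col3a1 than the left lungs of the day 1 and day 3 pools, by 1.56 and 1.33 on the log2 scale, and both genes were also called with those lungs, at log2 ratios of 4.04 and 3.15.

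Tnc, tenascin C, a matricellular protein of growing and healing tissue, went from 8.45, 8.88 and 8.55 in left lungs to 11.21, 11.19 and 11.06 in right lungs, 5.75-fold (SE 0.43, adjusted p = 0.00029). It was the largest of 5 rises among 11 matricellular genes, whose median was 0.82, ahead of the proteoglycans Lum (2.63-fold) and Fmod (2.54-fold) and the secreted protein Wisp1 (2.63-fold). Of 16 matrix proteases and inhibitors 3 rose and none fell (18.8% called, beside 19.6% of all genes). Timp1, an inhibitor of metalloproteinases, was at 8.96, 9.24 and 9.37 in left lungs and at 11.93, 11.86 and 12.10 in right lungs, 6.83-fold higher, and the collagen-cutting proteases Mmp2 and Mmp14 rose 2.27-fold and 2.1-fold. Fn1, fibronectin, at 10.75, 10.87 and 10.57 in left lungs and 11.31, 11.29 and 11.24 in right lungs, did not overlap but missed the threshold (log2 ratio 0.55, SE 0.23, adjusted p = 0.0655). With the other left lungs Fn1 was called, at 0.79. In the basement membrane 6 of 19 genes rose, led by Col15a1 (3.84-fold), with Nid1 (nidogen, 1.75-fold) and Hspg2 (perlecan, 1.58-fold) behind it. Of these 6, 4 were also called with the 6 other left lungs, and Nid1 was not (log2 ratio 0.53). Hspg2 was not called without pool 2 or without pool 3 (0.55 and 0.58).

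Of 26 growth factor ligands 7 rose and 4 fell (42.3% called, beside 19.6% of all genes), with a median of 0.17. Of these 11, 6 were also called with the 6 other left lungs. Igf1, a growth factor made by macrophages and fibroblasts, went from 8.20, 7.63 and 7.83 in left lungs to 9.47, 9.41 and 9.11 in right lungs (2.72-fold, SE 0.18, adjusted p = 1.9e-05). Areg, a ligand of the EGF receptor, lay at 9.13, 9.84 and 9.90 and at 11.36, 11.21 and 11.30 (3.17-fold, SE 0.30, adjusted p = 0.000479). The right lungs of these genes agreed more closely with each other than the left lungs did. Tgfb3, an activator of fibroblasts, rose 2.24-fold, Mdk (midkine), a growth factor of developing tissue, 2.16-fold, and Wnt5a, a ligand of lung development, 1.76-fold. Tgfb1 read a log2 ratio of 0.44 (SE 0.12, adjusted p = 0.0087), short of the fold required.

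The ligands that fell were Fgf1, Fgf10, Bmp6 and Angpt2. Fgf10, which drives branching and epithelial growth, fell by 0.65 on the log2 scale (SE 0.12, adjusted p = 0.000472), and Angpt2, which loosens vessels, by 0.72 (SE 0.18, adjusted p = 0.00442). With the 6 other left lungs Fgf10, Bmp6 and Angpt2 were not called, at log2 ratios of −0.32, −0.07 and −0.49. Without pool 2 the log2 ratio of Fgf10 was −0.50 and without pool 3 that of Angpt2 was −0.56, both not called. Among 23 receptors none rose and 4 fell (17.4%, beside 19.6% of all genes), and with the other left lungs Lrp5, a co-receptor of Wnt, rose (0.71) and 3 fell. Igf1r, the receptor of Igf1, lay at 10.30, 10.77 and 10.89 in left lungs and at 9.56, 9.55 and 9.67 in right lungs, 2.09-fold lower (SE 0.15, adjusted p = 5.62e-05), opposite in direction to its ligand. Acvrl1, a BMP receptor of endothelium, was 1.9-fold lower and Fgfr3, an FGF receptor, 1.84-fold lower, but Fgfr3 was not called when any 1 pool was left out (log2 ratio −1.01 to −0.67). Pdgfra, the PDGF receptor of alveolar fibroblasts, lay at 13.61, 13.37 and 13.31 and at 12.72, 12.88 and 12.57, 1.62-fold lower (adjusted p = 0.000107), but was not called with the other left lungs (log2 ratio −0.22). The shares called of 9 targets and inhibitors of TGF-beta and BMP signalling (22.2%) and of 13 such genes of Wnt and Notch (23.1%) stood beside 19.6% of all genes. Of the former 2 rose, the BMP target Id3 (2.78-fold) and Tgfbi (1.59-fold), the latter not called with the other left lungs (log2 ratio 0.36). Of the Wnt and Notch genes, the Wnt inhibitor Sfrp1 rose 4.12-fold, from 8.54, 7.86 and 8.10 to 10.39, 10.08 and 10.17 (adjusted p = 4.63e-08). In the same list 2 Notch genes fell, the target Hey1 (1.61-fold, not called with the other left lungs at −0.53) and the ligand Dll1 (1.52-fold). Dll1 was not called when any 1 pool was left out (log2 ratio −0.67 to −0.49).

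Complement and acute phase genes rose in 10 of 14 cases, with a median of 1.10. Saa3, an acute phase protein of epithelium and macrophages, went from 7.75, 7.34 and 7.42 in left lungs to 11.38, 11.31 and 11.39 in right lungs, 14.5-fold (SE 0.26, adjusted p = 5.17e-08). C3, the protein on which all complement pathways meet, rose 2.68-fold, from 13.63, 13.49 and 13.29 to 14.83, 14.90 and 14.95. Cfb, which builds the alternative C3 convertase, rose 4.97-fold, C4b of the classical pathway 3.94-fold, and the subunits C1qa, C1qb and C1qc of its first component 3.11-fold, 2.09-fold and 2.35-fold. C1qa was lower by 1.07 on the log2 scale in the left lungs used here than in those of the other pools and was not called with the latter (log2 ratio 0.56). Fcna, a lectin of macrophages that starts complement activation, was among the 12 genes that rose most (7.8-fold, adjusted p = 2.95e-06).

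Macrophage genes of repair rose in 6 of 13 cases, with a median of 0.55, and all 6 also rose with the other left lungs. Arg1, the arginine-degrading enzyme of alternatively activated macrophages, lay at 7.19, 7.09 and 6.87 in left lungs and at 10.56, 9.68 and 9.52 in right lungs, 7.3-fold (SE 0.35, adjusted p = 1.47e-05). Trem2, a lipid-sensing receptor of macrophages, rose 3.63-fold, from 7.67, 7.05 and 7.43 to 9.55, 9.42 and 8.76. Retnla, a secreted protein that macrophages and airway cells make, rose 4.12-fold, and the chitinase-like Chi3l3 1.65-fold. Of 14 markers of monocytes and interstitial macrophages 4 rose (28.6% called, beside 19.6% of all genes), among them Ms4a7 (2.31-fold) and F13a1 (1.95-fold). Of these 4, 2 were also called with the other left lungs. Of 9 markers of alveolar macrophages 3 rose and 1 fell (44.4% called), led by the scavenger receptor Marco (2.17-fold). The marker that fell was Car4, which endothelium also makes (1.59-fold), and it was not called with the other left lungs (log2 ratio −0.13). Of 16 cytokines and chemokines 3 were called (18.8%, beside 19.6% of all genes), and all 3 rose. They were the chemokines Ccl9 (2.26-fold) and Ccl6 (1.64-fold) and the alarmin Il33 (1.51-fold). Ccl6 was not called with the other left lungs (log2 ratio 0.27) or without pool 1 (0.53) or pool 3 (0.57), nor Il33 without pool 3 (0.45). Of 7 neutrophil markers 1 rose (14.3%), the iron-binding protein Ltf (2.65-fold), which airway glands also make, and with the other left lungs 4 rose. S100a9 lay at 12.30, 11.43 and 11.31 in left lungs and at 11.82, 12.10 and 12.02 in right lungs (log2 ratio 0.30, SE 0.26, adjusted p = 0.386), and with the other left lungs it was called at 0.86.

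Markers of T and NK cells fell in 8 of 10 cases, with a median of −0.77. Cd3e, a chain of the T cell receptor complex, went from 9.23, 9.31 and 9.47 in left lungs to 8.74, 8.20 and 8.32 in right lungs, 1.89-fold lower (SE 0.18, adjusted p = 0.000947). Il7r, the interleukin 7 receptor of resting T cells, was 2.19-fold lower, and Klrd1, a receptor of NK cells, 1.97-fold lower. With the other left lungs 6 of the 8 fell at the same median. The exceptions were the cytotoxic pore protein Prf1 and the adaptor Lat, at 0.02 and −0.17 there, and Prf1 without pool 3 (−0.51) and Lat without pool 1 (−0.43) or pool 2 (−0.61) were not called either. Of 7 B cell genes 3 fell, among them Fcer2a and Fcrla, while the antibody genes Igh-6 and Igk-C rose 2.69-fold and 1.94-fold. Igh-6, the constant region of IgM, lay at 11.68, 11.71 and 11.76 in left lungs and at 13.63, 13.44 and 12.37 in right lungs, and without pool 1 neither antibody gene was called (log2 ratios of 1.17 and 0.56), nor was Igk-C without pool 2 (0.95). Fcer2a was not called without pool 1 (−0.78) or pool 3 (−0.70). Platelet markers rose in 5 of 7 cases with a median of 1.11, but only Cxcl4 (platelet factor 4, 2.37-fold) and Ppbp (1.72-fold) were also called with the other left lungs, where the median was 0.43. Ppbp was not called when any 1 pool was left out (log2 ratio 0.70 to 0.83).

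**Figure D2:**
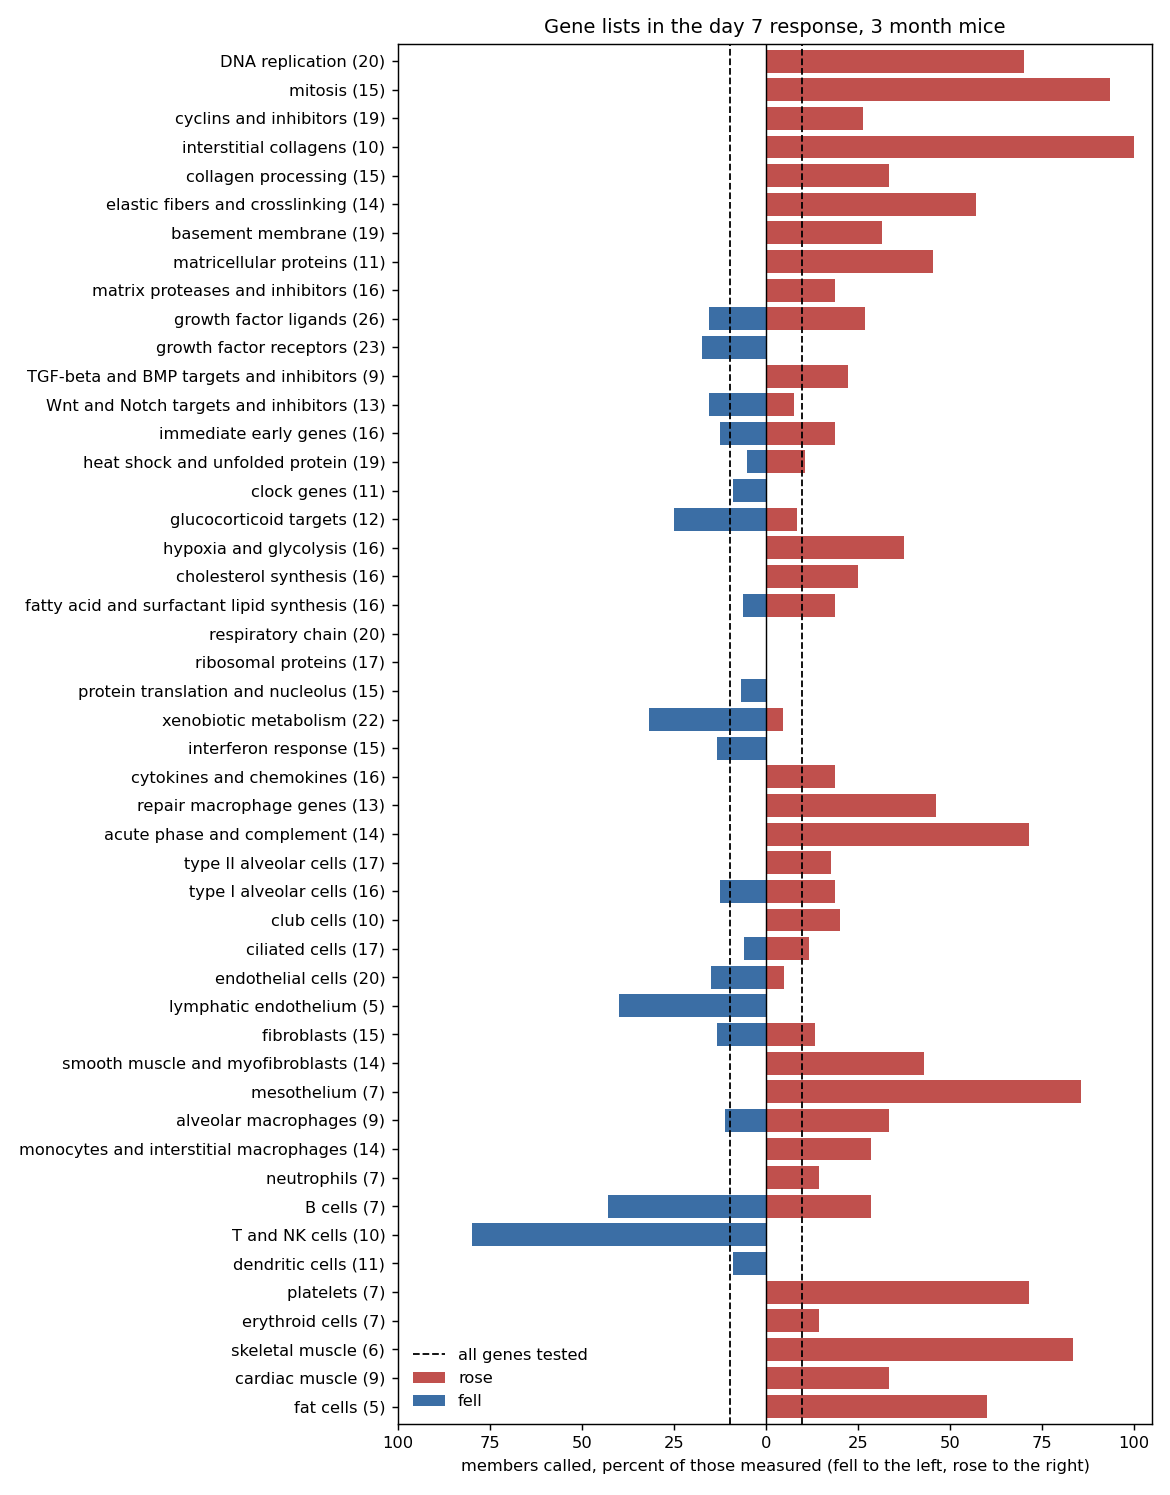
Share of the measured members of each gene list (number in brackets, lists of at least 5 measured) that rose (red) or fell (blue) on day 7 in 3 month mice. Dashed lines give the shares of all genes tested, 9.89% and 9.73%, and interstitial collagens and mitosis reach the highest shares risen and T and NK cells the highest share fallen.

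Mesothelial markers rose in 6 of 7 cases, with a median of 1.34, and all 6 also with the other left lungs. Msln, mesothelin, the surface protein of the cells that line the lung, lay at 9.16, 7.53 and 8.37 in left lungs and at 11.86, 11.92 and 11.94 in right lungs, 11.8-fold (SE 0.24, adjusted p = 7.43e-08). Its binding partner Muc16 went from 8.21, 6.92 and 8.21 to 10.81, 11.19 and 11.07, 9.46-fold (adjusted p = 4.13e-07), and the uroplakin Upk3b rose 6.44-fold. The left lungs of pool 2 were lowest for Msln, Muc16 and Upk3b, while the right lungs lay close together.

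The shares of type I (31.2%), fibroblast (26.7%), endothelial (20%) and type II (17.6%) markers called stood beside 19.6% of all genes. Of 17 type II cell markers 3 rose. Sftpb, a surfactant protein, went from 13.82, 14.07 and 14.02 in left lungs to 14.95, 14.82 and 15.03 in right lungs, 1.95-fold (SE 0.12, adjusted p = 1.47e-05), but with the other left lungs it was not called, at a log2 ratio of 0.39. Sftpc read a log2 ratio of 0.14 (SE 0.10, adjusted p = 0.293). Among 16 type I markers Krt7, Igfbp2 and Gprc5a rose 2.07-fold, 1.86-fold and 1.75-fold, and Clic5 and Limch1 fell 1.56-fold and 1.58-fold, and Krt7 and Limch1 were not called with the other left lungs (0.43 and −0.49). In the endothelium, 3 of 20 markers fell, the endothelin receptor Ednrb (1.77-fold, from 13.06, 13.12 and 13.23 to 12.54, 12.24 and 12.15), Vwf (1.5-fold) and Car4, and the transcription factor Sox17 rose 1.76-fold. With the other left lungs Vwf was not called either, at a log2 ratio of −0.56. Clic5 and Limch1 without pool 1 (−0.53 and −0.57), Car4 without pool 2 (−0.54) and Vwf without pool 3 (−0.48) were not called. Lyve1, a receptor of lymphatic endothelium and some macrophages, fell 2.15-fold here, and its log2 ratio was −0.32, not called, with the other left lungs.

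Smooth muscle and myofibroblast markers rose in 6 of 14 cases, with a median of 0.50. Of these 6, 4 were also called with the 6 other left lungs. Tagln, an actin-binding protein, rose 2.07-fold, Smtn (smoothelin) 1.74-fold and Tpm2 (a tropomyosin) 1.8-fold, and Smtn was not called with the other left lungs (log2 ratio 0.41). Acta2, smooth muscle actin, lay at 13.79, 13.62 and 13.89 in left lungs and at 14.28, 14.11 and 14.20 in right lungs and did not reach the required fold (log2 ratio 0.43, SE 0.14, adjusted p = 0.021). Of 6 markers of skeletal muscle 5 rose, with a median of 4.50. The median was 4.49 on day 1, 3.21 on day 3 and 4.14 in 9 month mice on day 7. In 9 month mice on day 3 it was −0.89, −0.54 and 4.04 in the 3 pools. In these pools the mitosis median was 1.9, 2.73 and 3.24, and that of interstitial collagens 1.03, 1.44 and 1.79. On day 7 in 3 month mice, the mean log2 value of the 6 muscle markers was 7.93 to 8.26 in the left lungs. It was 12.26, 11.89 and 11.09 in the right lungs of pools 1, 2 and 3. Mylpf, a light chain of fast muscle myosin, lay at 7.09, 6.86 and 6.95 in left lungs and at 12.95, 12.48 and 11.58 in right lungs, 41.2-fold higher (SE 0.64, adjusted p = 1.36e-05). Desmin (Des), a marker of all muscle, rose 1.57-fold and was at 12.15, 12.07 and 11.39 in right lungs, lowest in pool 3 like the skeletal markers, but it was not called without pool 1 (0.52) or pool 2 (0.56). Of 9 cardiac markers 3 rose (33.3% called, beside 19.6% of all genes), led by Myl3, which slow skeletal muscle shares (17-fold). Of 5 fat cell markers 3 rose, the adipokines Adipoq (5.11-fold) and Cfd (3.89-fold) and Car3 (4.75-fold). Whether skeletal muscle or fat tissue collected with the right lungs contributes to the other rises was not tested. The single measured markers of thymus and of cartilage were not called.

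The 12 genes that rose most, clone and predicted names left out, included 6 of muscle, Mylpf, Tnni2, Ckm, Atp2a1, Myl3 and Myl1. Rptn (repetin), a protein of cornified epithelium, went from 7.71, 7.40 and 7.35 to 12.75, 12.49 and 11.95 (30.2-fold, SE 0.77, adjusted p = 0.000146). Calml3, a calmodulin of epithelial cells, rose 11.4-fold, and pool 3 had the lowest right lung for both, as for the muscle genes. Saa3, Msln, Muc16 and Fcna complete the 12.

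Lrat, the enzyme that stores retinol as esters, fell most among called genes with 1 sign in all pools, clone and predicted names left out. It lay at 10.27, 10.29 and 10.43 in left lungs and at 6.86, 6.64 and 7.20 in right lungs, 10.8-fold lower (log2 ratio −3.43, SE 0.39, adjusted p = 8.28e-06). Next came Thsd4, a protein that promotes microfibril assembly (5.36-fold), Syne1, which ties the nucleus to the cytoskeleton (5.07-fold), and Bach1, a heme-sensing repressor (4.31-fold). Thsd4 went from 10.32, 10.56 and 10.94 to 7.68, 7.98 and 8.90. The others of the 12 that fell most were Efcab1, Usp10, Centa2, Mllt3, Asf1a, Skz1-pending, Zc3h13 and Zfp641, at log2 ratios of −2.03 to −1.80. In 10 of these 12 genes pool 3 had the highest right lung, so its fall was often the smallest. All 12 were also called with the other left lungs, where Usp10, a deubiquitinase, read −0.86 against −1.97 here. The size of the falls varied with the processing and with the pools and left lungs used. Over these alternatives the log2 ratio ran from −3.53 to −2.50 for Lrat, −2.62 to −1.98 for Thsd4 and −2.50 to −1.38 for Syne1. For Bach1 it ran from −2.39 to −1.71, for Efcab1 from −2.40 to −1.17 and for Skz1-pending from −2.01 to −0.81.

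Among xenobiotic enzymes 7 of 22 fell and 1 rose (36.4% called, beside 19.6% of all genes). Cyp4b1, a cytochrome P450 of the lung, lay at 12.83, 13.17 and 12.86 in left lungs and at 11.59, 11.99 and 11.79 in right lungs, 2.24-fold lower (SE 0.16, adjusted p = 5.54e-05). Cyp2b10 was 2.02-fold lower, and the flavin monooxygenases Fmo1 and Fmo2 were 2.16-fold and 1.72-fold lower. Aldh3a1, an aldehyde dehydrogenase, rose 2.66-fold. Without pool 1, Aldh3a1 (log2 ratio 1.36) and Fmo2 (−0.60) were not called, nor was Aldh3a1 without pool 2 (1.37). All 8 were called with the other left lungs as well, where 10 genes of the list fell and 3 rose.

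Glycolytic and hypoxia genes rose in 6 of 16 cases, among them Gapdh (1.75-fold), Pkm2 (1.74-fold) and Ldha (1.64-fold), but only Pgk1 (1.53-fold; 0.54 on the log2 scale and not called without pool 3) was called with the other left lungs, where these 3 genes were at log2 ratios of 0.49, 0.44 and 0.58. Of 16 cholesterol synthesis genes 4 rose (25%, beside 19.6% of all genes called), and only Dhcr7, which catalyses the last step (2.61-fold), also rose with those lungs. Of 16 genes of fatty acid and surfactant lipid synthesis 3 rose and 1 fell (25% called), with a median of 0.07. Of these 4, 2 were also called with the other left lungs. Elovl6 of this list, which elongates fatty acids, rose 3.06-fold. None of 20 respiratory chain and none of 17 ribosomal protein genes was called in limma, although 10 and 4 had an unadjusted p under 0.05, and their medians were 0.15 and −0.07. With the other left lungs the respiratory chain genes Cox6c (0.74), Atp5a1 (1.51) and Ndufb5 (0.95) rose and the ribosomal protein genes Rps15 (−0.83) and Rps6 (−0.59) fell. Of 12 glucocorticoid targets 3 fell and 1 rose (33.3% called, beside 19.6% of all genes). The phosphatase Dusp1 (2.02-fold), Errfi1, which curbs the EGF receptor (1.98-fold), and Klf9 (1.89-fold) fell, and the metallothionein Mt1 rose (1.54-fold). With the other left lungs 6 fell and 2 rose, Pdk4 (1.03) and Cdkn1a (0.78), and Mt1 was not called (0.35), nor was it without pool 1 (0.50) or pool 3 (0.59).

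Stress and early response genes were called in 31.2% of immediate early, 15.8% of heat shock and unfolded protein and 13.3% of interferon response genes, beside 19.6% of all genes. Of 19 heat shock and unfolded protein genes the endoplasmic reticulum chaperones Calr and Hspa5 rose 1.91-fold and 1.58-fold and Ddit3, a transcription factor of that response, fell 1.95-fold. Of 16 immediate early genes 3 rose, among them Fosb (2.57-fold) and Atf3 (1.9-fold), and 2 fell, Jun (1.59-fold) and Dusp1. Of 15 interferon response genes 2 fell, the helicase Ddx58 (1.53-fold) and the GTPase Igtp (1.6-fold), and Ddx58 was not called with the other left lungs (log2 ratio 0.03). When any 1 pool was left out Ddx58 was not called (log2 ratio −0.68 to −0.53), and Calr, Hspa5, Fosb, Atf3 and Jun each lost their call without pool 3, at 0.55, 0.54, 1.13, 0.93 and −0.48, and without pool 2, at 1.08, 0.60, 1.33, 0.62 and −0.56. Of 15 fibroblast markers 2 rose and 2 fell, led by Npnt (nephronectin), a matrix protein of the epithelial border that went from 7.13, 8.11 and 8.08 in left lungs to 9.92, 9.76 and 9.21 in right lungs (3.63-fold, adjusted p = 0.000813). Of 19 genes named by the study 11 rose, among them S100a4, a protein of motile fibroblasts and macrophages (1.74-fold), and Tnfrsf12a, the receptor of TWEAK (2.19-fold). Some of the 19 were named by the study for their values on arrays of this series, so their count is not independent evidence.

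The result for clock genes depended on which left lungs were used. Of 11 measured, 1 was called, Nr1d1, a repressor of the clock, which was 1.74-fold lower with overlapping lungs (7.60, 8.44 and 9.58 in left lungs and 7.39, 7.65 and 8.18 in right lungs). The median was −0.39. Dbp, a clock output gene, lay at 9.36, 10.61 and 13.09 in the left lungs of pools 1, 2 and 3 and at 10.09, 9.91 and 10.34 in their right lungs (log2 ratio −0.90, SE 0.45, adjusted p = 0.12). Without pool 1 it was called at −1.72, and without pool 3 its ratio was 0.02. Nr1d1 was not called without pool 2 (−0.80) or pool 3 (−0.50). With the 6 other left lungs the median was −1.22 and 7 genes fell, and 7 of the 11 differed between the left lungs of the day 7 pools and those of the other pools. The hour at which lungs were taken is not given in the sources used here.

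**Figure D3:**
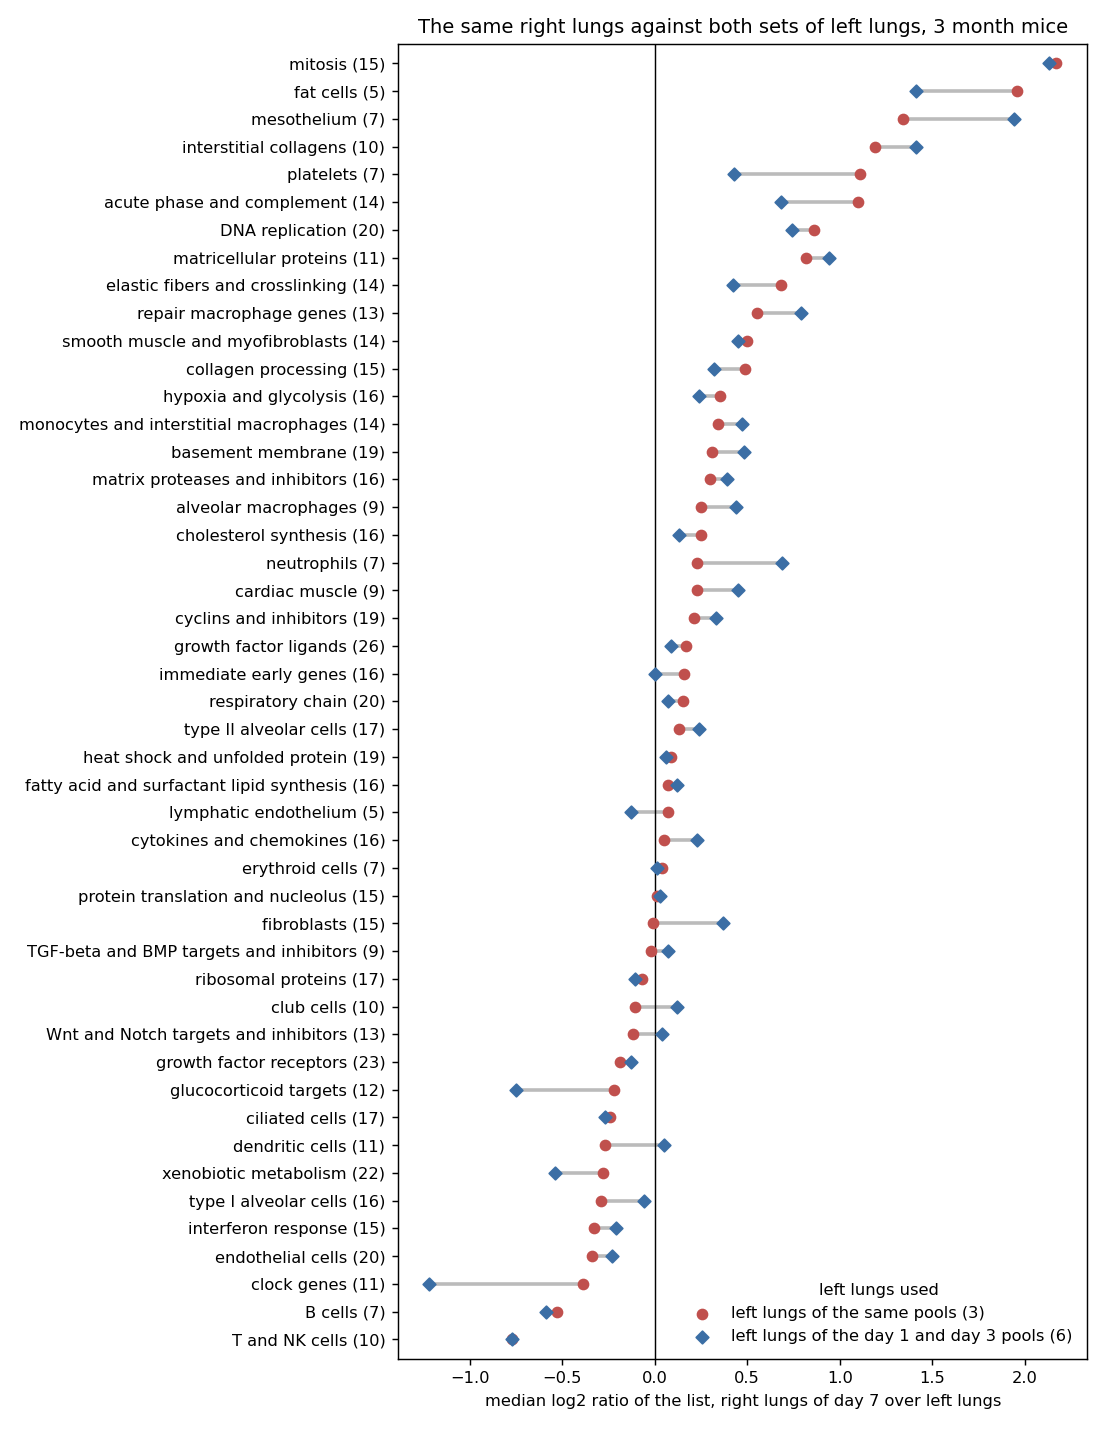
Median log2 ratio (x axis) of each list (number of genes in brackets) for the day 7 right lungs of 3 month mice over the left lungs of the same pools (circles) or over the 6 left lungs of the day 1 and day 3 pools (diamonds). Mitosis and T and NK cells barely moved (2.17 and 2.13, −0.77 in both), while clock genes went from −0.39 to −1.22 and platelets from 1.11 to 0.43. Skeletal muscle, at 4.50 and 4.11, is left out for scale.

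To find where day 7 differs from the days before it, the response was compared with those of day 3 and day 1, which came from other mice with their own left lungs. Of the 2238 genes called on day 7, 44.3% were also called in the same direction on day 3, which is 59.5% of the 1665 genes called on day 3 (14.6% of all), and 1 gene was called in opposite directions. For day 1, with 1697 genes called (14.9%), the shares were 28.9% and 38.1%, with 18 genes called in opposite directions. A change between days was called at a limma adjusted p under 0.05 where at least 1 of the responses compared reached 1.5-fold. From day 3 to day 7 this held for 3 of 15795 transcripts (0.019%), and for 2 genes (0.0175%). They were Nudel-pending, a partner of dynein, at log2 ratios of 0.13 on day 3 and −1.44 on day 7, and Tor1aip1, a protein of the nuclear envelope, at 0.17 and −0.71. The count of transcripts called from day 3 to day 7 ranged from 0 to 203 when 1 pool of either day was left out. It was 203 without pool 1 of day 3, so these pools do not settle how many genes changed from day 3 to day 7.

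From day 1 to day 7 the response changed for 1558 of 15795 transcripts (9.86%) and for 1093 of 11410 genes (9.58%), upward for 630 (5.52%) and downward for 463 (4.06%). Of the mitosis list 13 of 15 genes were higher on day 7 than on day 1, with medians of 0.27, 2.41 and 2.17 on days 1, 3 and 7. Plk1 had log2 ratios of −0.05, 2.41 and 2.32 on these days, and the change from day 1 was 2.37 (SE 0.33, limma adjusted p = 0.000609). None of the 20 DNA replication genes was called in limma for a change from day 1 to day 7, 2 had an unadjusted p under 0.05, and their medians were 0.69, 1.02 and 0.86. On day 1, 11 of the 20 replication genes and 4 of the 15 mitosis genes had been called higher, against 5.86% of all genes. Of the interstitial collagens 5 of 10 were higher on day 7 than on day 1, with medians of 0.46, 1.29 and 1.19 over the 3 days. Areg (−0.44 on day 1, 1.66 on day 7) and the mesothelial Muc16 (0.85, 3.24) were among the 8 genes with the largest upward change.

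Neutrophil markers, all 7 of which were called higher on day 1, were lower in the day 7 response in 6 cases, with medians of 2.13, 1.38 and 0.23 on days 1, 3 and 7. With the 6 other left lungs their day 7 median was 0.69 and 4 of the 7 rose. Clec4d, a lectin receptor of neutrophils and monocytes, had log2 ratios of 2.65, 1.75 and 0.23 on days 1, 3 and 7, and the protease Mmp9 had 1.99, 0.90 and −0.04. The left lungs of the day 7 pools carried more Clec4d than those of the other pools, by 0.79. With the 6 other left lungs its day 7 log2 ratio was 1.03. Saa3 and Arg1 were still called on day 7 but at smaller ratios than on day 1, 3.85 against 5.97 and 2.87 against 5.00. C4b moved the other way, from 0.46 to 1.98 (change 1.52, SE 0.18, adjusted p = 0.00027), and its day 7 ratio was 1.38 with the 6 other left lungs. How far the left lungs of each day contribute to these changes was not tested. Lrat had the largest downward change of the named genes, with −0.04, −1.06 and −3.43 on the 3 days.

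**Figure D4:**
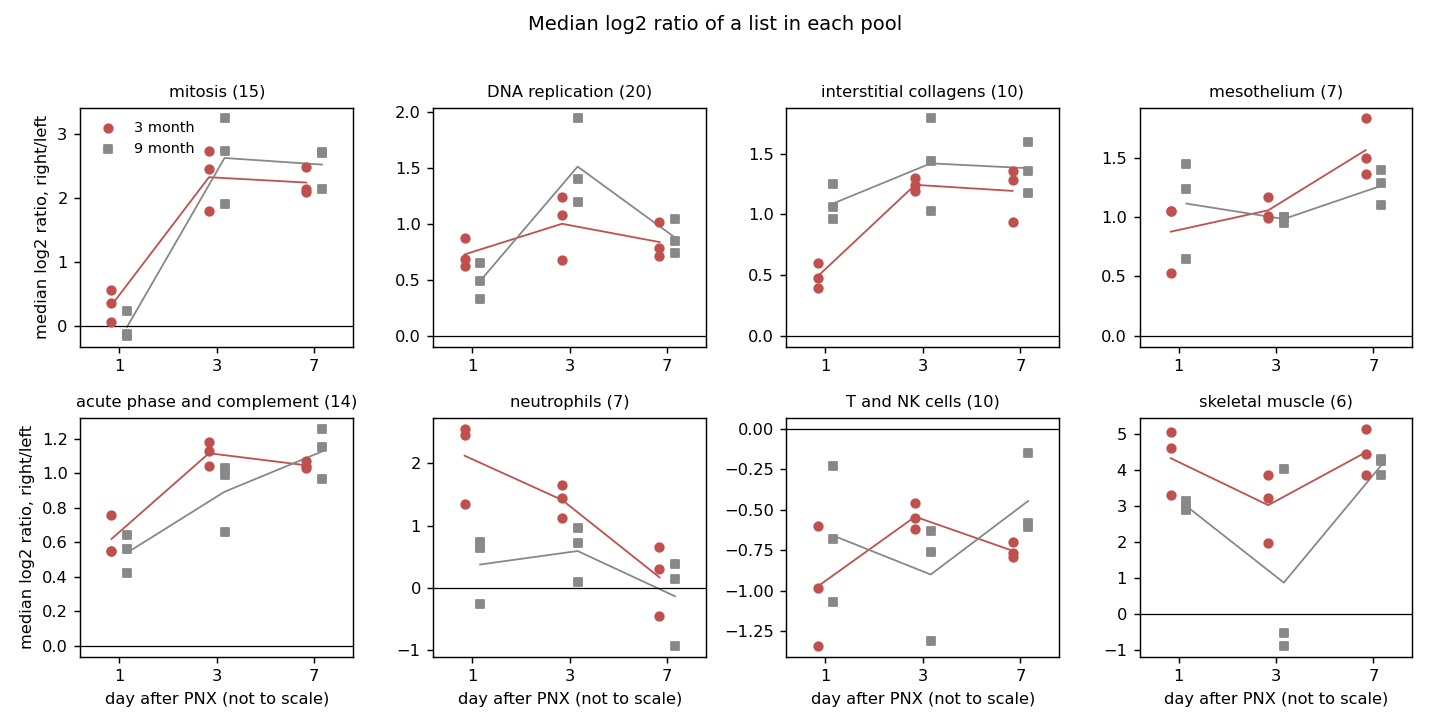
Median log2 ratio (y axis, right over left lung) of 8 gene lists (number of genes in brackets) in each pool on days 1, 3 and 7 (x axis), for 3 month (red) and 9 month (gray) mice. Points are pools and lines join the means of 3 pools. Mitosis in 3 month pools lay at 0.06 to 0.56 on day 1 and at 2.10 to 2.48 on day 7, and neutrophil markers at 1.35 to 2.56 and at −0.45 to 0.66.

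The 9 month mice of day 7 lay on the same chips as the 3 month mice, at other positions, so age and position on the chip cannot be told apart. No transcript was called for a difference between the ages in the day 7 response by limma, 571 of 15795 (3.62%) had an unadjusted p under 0.05, and a test of unequal variance on the ratios of the pools called 1 and found 527 at that unadjusted level. Of the genes called in 3 month mice 73.1% were called in the same direction in 9 month mice, which is 70.1% of the 2333 genes called in the latter (20.4% of all), with 0 in opposite directions. The medians in 3 and 9 month mice were 2.17 and 2.52 for mitosis, 1.19 and 1.33 for interstitial collagens, and 1.10 and 1.18 for complement and acute phase genes. Mki67 had log2 ratios of 2.35 and 2.46, a difference of 0.11 (SE 0.24), and Lrat of −3.43 and −3.30, a difference of 0.13 (SE 0.55). For Col1a1 they were 2.37 and 3.17, and the older mice were higher by 0.80 (SE 0.29, adjusted p = 1). For Arg1 the ratios were 2.87 and 4.36 (difference 1.49, SE 0.49, adjusted p = 1). With 3 pools an age, the standard errors leave differences of this size unsettled.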

How the data were processed

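RNA of 18 pools of 2 mice was measured on 36 arrays, both lungs of each pool. The authors deposited, for each probe, the intensity without background correction and its detection p-value. Also deposited was a table of log2 values, which the authors had background corrected by RMA and quantile normalized in lumi. Each of its 36 columns matched the intensities of its own array best (r = 0.984). The authors' supplementary fold changes were not used.

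Intensities were corrected with normexp from the detection p-values (offset 16), quantile normalized and taken to log2 (neqc; limma 3.58.1, R 4.3.3). Probes detected at p under 0.05 on all 36 arrays were kept (15795 of 45281). Intensity and the number of arrays limit the precision.

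The log2 difference between both lungs of a pool was fitted in limma (lmFit, eBayes) with the 6 groups of pools sharing 1 spread, with Benjamini-Hochberg adjustment across the probes kept. Lungs were paired because they came from the same mice, and deviations of paired lungs from their group means correlated at −0.001 to 0.047 in these pools and at −0.283 to 0.078 over all 18. Nothing says that pools of a group came from separate experiments, so p-values measure the spread between these pools. Where a gene had several probes, the one with the highest mean over the 36 arrays stood for it. Symbols are those of the array (21841 of 30789 matched to RefSeq genes of GRCm38.p6).

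The members and gene lists were chosen with earlier results of these data known. Named genes are the 12 with the largest change per direction, called and with 1 sign in all pools, up to 6 called and 4 defining uncalled members of each list, genes the paper names, and the 8 largest changes per direction between days or ages, leaving out clone and predicted names. Called list members outside this rule (Aldh3a1, Angpt2, Bmp6, C1qb, C1qc, Cdca8, Fgf1, Fmo2, Foxm1, Kif22, Loxl1, Nusap1, Rfc3, Top2a and Wnt5a) were added after their values were seen.

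For the ages the methods name the t-statistic on ratios of the pools, and a test of unequal variance was run as an alternative. Other alternatives were the background correction, scaling, the deposited log2 values, detection filters, the fold threshold, pools entering the fit, no pairing, other left lungs, array weights and leaving out each pool. The statistics were also run on simulated data with independent noise and added changes. Those data held no effect of side, chip or day, so the run says nothing about such effects.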

Additional observations from a re-analysis of the deposited data

Results flagged for a closer look

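The response of 3 month mice was flagged where its change between days passed limma's test of the difference itself. From day 3 to day 7 this held for 3 transcripts. The named genes among them were Nudel-pending, lower on day 7 by a log2 ratio of −1.57, and Tor1aip1, lower by −0.87. From day 1 to day 7 it held for 1558 transcripts. Among the genes with the largest upward change were those of mitosis, Cdca3 (2.47), Plk1 (2.37), Cdc20 (2.36), Cdca2 (2.29) and Prc1 (2.16), with Cdkn3, a phosphatase of cell cycle kinases (2.41). The mesothelial Muc16 changed by 2.4 and the EGF receptor ligand Areg by 2.10. The largest downward changes were those of Lrat (−3.39), Clec4d (−2.42), Arg1 (−2.13), Saa3 (−2.11), Zc3h13 (−2.10), Mmp9 (−2.03), the acute phase gene Serpina3n (−1.96) and Prkaa2 (−1.93), a subunit of the AMP-activated kinase. Days also differ in chip and in the left lungs used, and the part of either in these changes was not tested.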

How the results depend on the processing

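The calls of the day 7 response (3225 transcripts, 1537 risen and 1688 fallen) numbered 1806 (947 and 859) with the deposited log2 values, 4841 (2349 risen) with detection on at least 3 of the 6 arrays, 5938 (2627 and 3311) with no fold threshold and, for those that rose, 2379 with no detection filter. Leaving out 1 pool gave 2861 to 3031 calls, 1428 to 1494 of them risen and 1433 to 1566 fallen. Without the replicate block, that is without pairing, 3248 transcripts were called, and of 181 named genes Hspa5, Igtp, Nr1d1 and Ppbp lost their call and no other changed it. Against the 6 other left lungs 3531 were called, and 56.2% of the calls reported were among them. The change from day 3 to day 7 (3 calls) gave 33 with an offset of 50, 38 with no background correction, 41 with the deposited log2 values, 35 with detection p under 0.01, 0 with only the pools compared, 111 with no replicate block, 332 with array weights and 0 to 203 when a pool was left out (203 without pool 1 of day 3). From day 1 to day 7, leaving out a pool gave 924 to 1363 calls (924 without pool 3 of day 1, 976 without pool 2 and 996 without pool 1 of day 7). The age difference (0 calls) gave 1 with the test of unequal variance and 0 to 2 when a pool was left out, 2 without pool 2 of the 9 month mice. Left lungs of the day 7 pools differed from the others in 654 transcripts with the deposited log2 values and in 1260 to 1998 when a pool was left out. The cause of these shifts was not tested.

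Directions reversed for a few genes, of which Rfc3, Prf1 and Ddx58 had been called. With the 6 other left lungs the log2 ratios were −0.17 for Ccnd1, 0.43 for Mmp9, 0.02 for Prf1, −0.40 for Rfc3, 0.03 for Ddx58, 0.78 for Cdkn1a and −0.08 for Tgfb1. With all 9 left lungs they were −0.05 for Ccnd1, 0.27 for Mmp9, 0.47 for Cdkn1a and −0.06 for Rfc3. Mmp9 was at 0.02 with array weights. When a pool was left out, Clec4d ranged from −0.02 to 0.42, Dbp from −1.72 to 0.02, Cdkn1a from −0.53 to 0.11, Pdk4 from −0.03 to 0.42 and Mmp9 from −0.15 to 0.11. With the deposited log2 values 14 of the 181 named genes lost their call, and with an offset of 50 4 did. Genes not detected on every array were not measured here.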
